A study of Drosophila melanogaster with 42 samples.

Results

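The 70 genes described here are the glutathione transferases and the glucuronosyl transferases of Drosophila melanogaster, taken by name: every probe whose current gene symbol begins with Gst and a capital letter, or with Ugt and a number. The families were chosen with earlier results of these data known. The members are 35 Gst genes with 36 probes and 35 Ugt genes with 35 probes, out of 12164 genes that could be named among 16320 probes, and GstO2 is the gene with 2 probes. Each value is a log2 ratio between 2 RNA samples hybridised to 1 array in 2 colours. There were 42 arrays, 32 of adult heads and 10 of the dissected CNS (brain and ventral nerve cord).

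Glutathione transferases join the tripeptide glutathione to reactive or lipid-soluble compounds, which makes them soluble and ready for export. Glucuronosyl transferases do a similar job with a sugar taken from a UDP-sugar. Both families are known for clearing plant toxins, insecticides, products of lipid oxidation and odorants, and insects hold many copies of them in clusters of neighbouring genes. In these flies 10 Epsilon Gst genes (GstE10 and GstE1 to GstE9) sit side by side on chromosome arm 2R, 11 Delta genes (GstD) on 3R, and 10 Ugt genes around Ugt35B1 on 3R, with 2, 2 and 3 other genes among them.

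Wild-type sex differences were measured in heads of Canton S (4 arrays) and Berlin (4 arrays) and in the CNS of Canton S (4 arrays), as female over male. The mutants, which alter genes of the somatic sex hierarchy, were set against wild-type flies of the same chromosomal sex. Heads of tra pseudomales (XX, tra1/Df(3L)st-j7, 4 arrays), of dsxD pseudomales (XX, dsxD,Sb/dsxm+r15, 4 arrays) and of dsx null XX flies (dsxd+r3/dsxm+r15, 4 arrays) were compared with Canton S females, and heads of dsx null XY flies (the same dsx alleles, 4 arrays) with Canton S males. The fru males carried fru4-40/frup14 (heads 4 arrays, CNS 3), set against Canton S males, or w; fruw12/frucham5 (heads 4 arrays, CNS 3), set against w; Berlin males. The combination fru4-40/frup14 also removes the P2 promoter transcripts of fru. The fru combinations are made of deficiency chromosomes and tra lies over Df(3L)st-j7, so loci beside these genes may be present once. All 3 kinds of XX mutant carried y, w and the transgene P[w+cM,ubi-gfp] on an X chromosome, and the pseudomales w on the other. A mutant and its control thus come from different stocks, and genotype and strain background cannot be told apart in any mutant comparison. The labels give an age of 0 to 24 h and the protocol one of 8 to 24 h at freezing, with about 100 heads or 20 CNS a sample. Each comparison's arrays had RNA of both dye orientations, except that each fru combination in the CNS was hybridised in 1 orientation, so that combination and dye cannot be told apart there.

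All ratios below are mutant over wild type, or female over male, and a fold is 2 to the power of the log2 ratio. The test took in probes with a value on 75% or more of the arrays (3 of 4, 5 of 6 or 6 of 8), and a probe was called at a Benjamini-Hochberg adjusted p under 0.15 over all probes tested, from limma's test. What is called the methods' t-test below was a plain 2-sided t-test with the same adjustment. The authors used the positive FDR, with 1-tailed tests for tra and dsxD, so its counts are not theirs. Of the 71 probes, 34 to 50 could be tested in a comparison, 60 in at least 1, and 11 in none; Ugt304A1 and Ugt37E1 held no value on any array. Arrays held values for 36.0 to 72.9% of all probes. The tra and fru probes tested in their own mutants were lower, though not all were called, and no dsx probe could be tested in the dsx mutants. The tra probe was at -1.40 in tra pseudomales, and a fru probe at -1.23 in fru4-40/frup14 and -0.47 in fruw12/frucham5 heads. Another fru probe was at -0.14 in fruw12/frucham5 heads (limma adjusted p = 0.494), and 1 was at -0.56 in the fru CNS (0.412). Neither of these was called. Yp1, a yolk protein of the female fat body, was at 6.64 in wild-type heads and -6.13 in tra pseudomales. In RNA of whole heads, a change in the number of cells of a type and a change in RNA per cell cannot be told apart.

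In 5 of the 6 mutant genotypes the share of transferases called higher in heads was several times that of all probes. In tra pseudomales 15 of 43 were higher, where 5.04% of all probes were, and 2 were lower against 4.51% of all. In dsxD pseudomales 11 of 49 were higher (all probes 3.36%) and 0 lower (2.61%), by limma, with 20 at an unadjusted p under 0.05 in either direction and 3 called by the methods' t-test. In dsx null XX heads 18 of 41 were higher (11.7%) and 0 lower (9.74%), with 20 at an unadjusted p under 0.05 in either direction and 10 called by the methods' t-test. In dsx null XY heads 21 of 43 were higher (13.4%) and 1 lower (12.4%). In fru4-40/frup14 heads 16 of 34 were higher (9.74%) and 1 lower (10.5%). In fruw12/frucham5 heads the directions were mixed, with 11 of 50 higher (8.76%) and 8 lower (8.21%). The 2 fru combinations fitted together gave 9 of 36 higher (6.77%) and 2 lower (4.86%).

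The median log2 ratio of the tested transferases was 0.25 in tra, 0.21 in dsxD, 0.20 in the XX null, 0.38 in the XY null, 0.34 in fru4-40/frup14 and -0.02 in fruw12/frucham5, while the median of all probes lay between -0.03 and 0.01. The count moved most without dsxD array 2 (7 called), XY null array 3 or 4 (14 and 13), fru4-40/frup14 array 3 (9) and fruw12/frucham5 array 1 or 3 (9 and 11). Leaving out fru4-40/frup14 array 2 or 3 brought the joint fru count to 6 each. The comparisons of tra, dsxD, both dsx nulls and fru4-40/frup14 share the Canton S control strain, so their values stand side by side and do not count as independent.

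**Figure D1:**
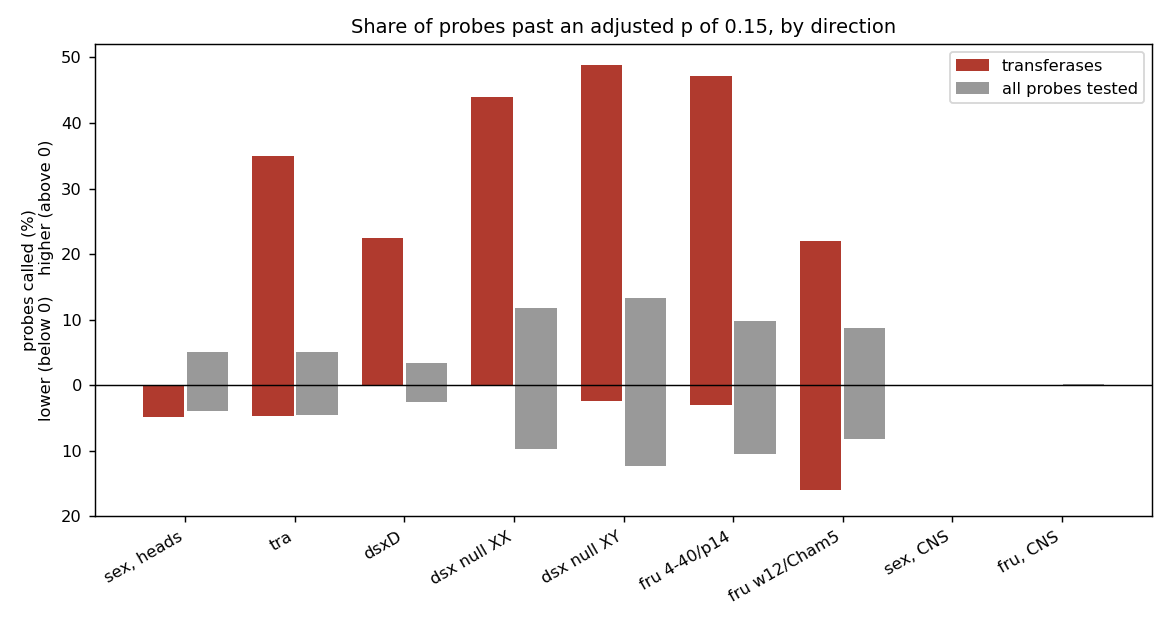
Percent of tested probes called (limma, adjusted p under 0.15) in each comparison, with higher calls above 0 and lower calls below 0 on the y axis; red bars are the transferases and grey bars all probes tested. Higher transferase calls reach 48.8% in dsx null XY heads, where 13.4% of all probes were called higher, and no transferase is called in the CNS.

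**Figure D2:**
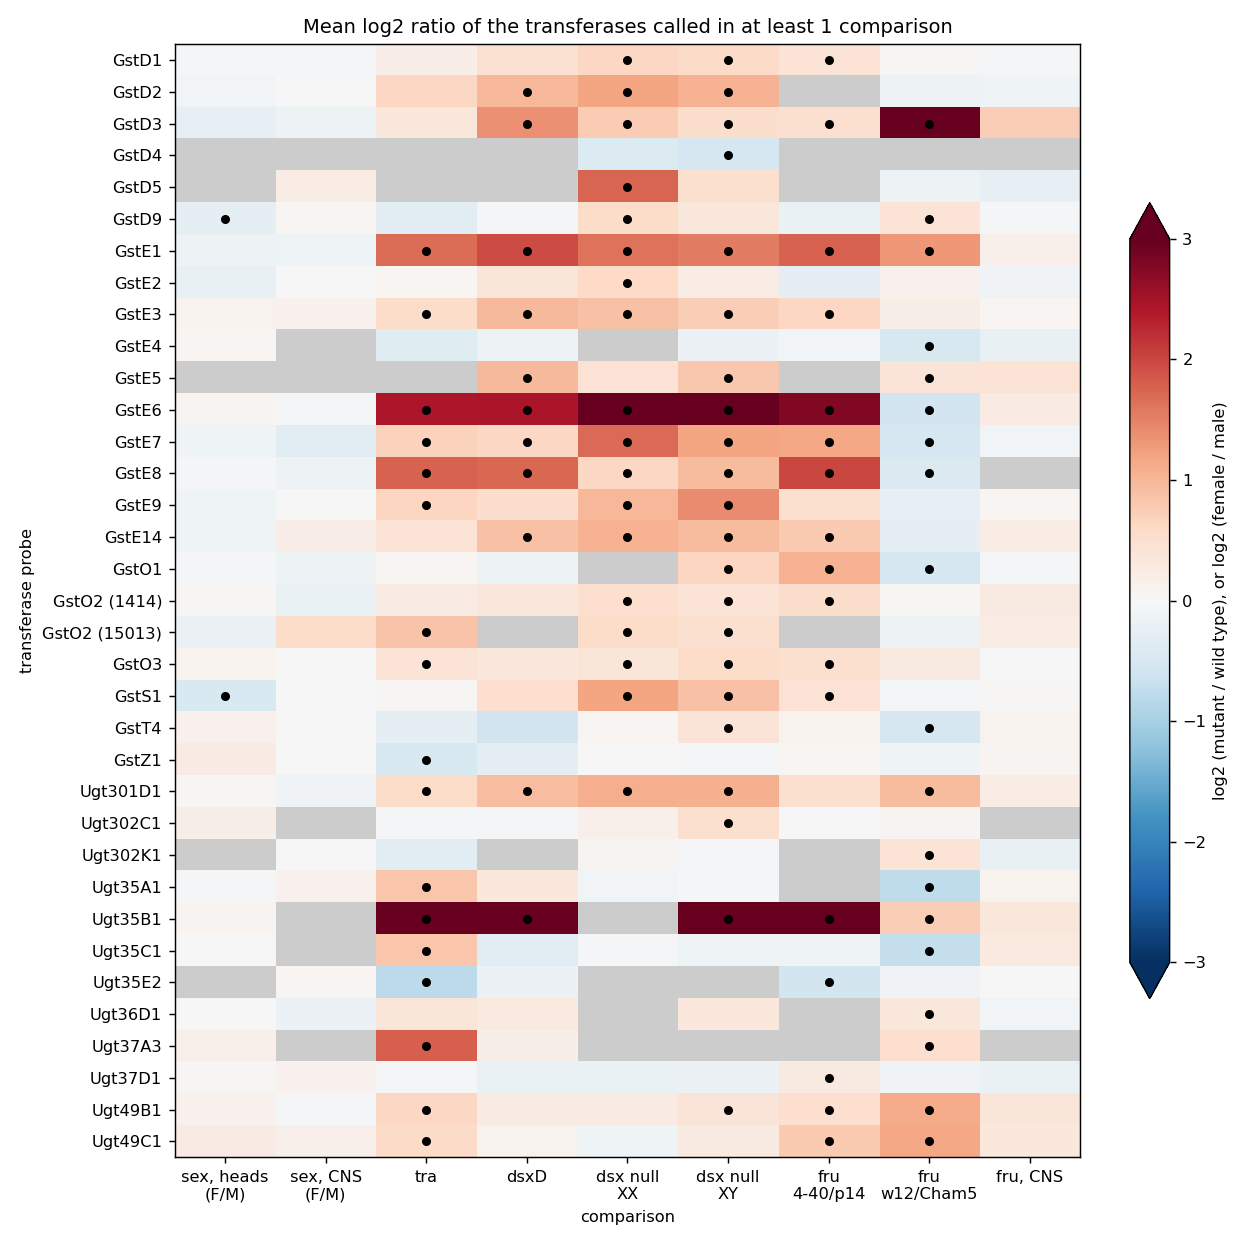
Mean log2 ratio (colour, limited to -3 and 3) of the 35 transferase probes called at least once, by comparison on the x axis; black dots mark calls and grey cells were not tested. GstE1, GstE3, GstE6, GstE7 and GstE8 are red with a dot in the tra, dsx and fru4-40/frup14 columns, and GstE6, GstE7 and GstE8 turn blue in fruw12/frucham5.

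Among the Gst classes the Epsilon class held the most calls, and it also has the most probes, 14. In both dsx nulls and fru4-40/frup14 the share called higher was larger in the Omega class, given below. The shares of all probes are those given above. Higher were 6 of 12 tested Epsilon probes in tra, 7 of 14 in dsxD, 8 of 12 in each dsx null and 6 of 11 in fru4-40/frup14, with 0 lower in all of these. In fruw12/frucham5, 2 of 14 were higher and 4 lower. GstE1, GstE3, GstE6, GstE7 and GstE8 were called higher in each of the 5 Canton S comparisons.

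GstE6 was the Epsilon gene with the highest ratios. Its log2 ratios were 2.33, 2.31, 2.50 and 2.53 on the 4 tra arrays, a mean of 2.42 (SE 0.12, 5.34-fold, limma adjusted p = 8.5e-06). On the dsxD arrays they were 1.90, 2.30, 2.84 and 2.72, a mean of 2.44 (SE 0.17, 5.43-fold). Neither set came near 0, and the tra arrays lay inside the wider range of the dsxD arrays. The dsx nulls stood higher, with 3.83, 3.20, 3.92 and 3.98 in XX heads (mean 3.73, SE 0.14, 13.3-fold) and 4.65, 3.28, 4.31 and 4.62 in XY heads (mean 4.21, SE 0.23, 18.6-fold). The fru4-40/frup14 arrays gave 2.35, 2.76, 3.12 and 2.86 (mean 2.77, SE 0.13, 6.82-fold). In fruw12/frucham5 the gene was lower on all 4 arrays, at -0.52, -0.87, -0.41 and -0.52 (mean -0.58, SE 0.11, limma adjusted p = 0.0157).

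GstE1, whose product conjugates products of lipid oxidation, was the transferase called higher in all 6 mutant genotypes. Its log2 ratio was 1.67, 1.75, 1.83 and 1.45 in tra, and 1.45, 1.80, 2.26 and 2.29 in dsxD. The XX null gave 1.35, 1.66, 1.83 and 1.65, and the XY null 1.45, 1.27, 1.73 and 1.67. The ranges of these 4 genotypes overlapped. It was 1.51, 1.68 and 2.11 in fru4-40/frup14, with no value on array 3, and 1.22, 1.03, 1.67 and 1.26 in fruw12/frucham5. The means ran from 1.30 (SE 0.12, 2.45-fold) to 1.95 (SE 0.16, 3.86-fold), with limma adjusted p between 9.62e-05 and 0.0026.

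GstE8 and GstE7, neighbours of GstE6, rose in the same 5 Canton S comparisons by differing amounts. GstE8 was at 1.77 (SE 0.11) in tra, 1.73 (SE 0.21) in dsxD and 2.00 (SE 0.17) in fru4-40/frup14. Its ratio was smaller in the nulls, at 0.63 (SE 0.13) in XX and 0.95 (SE 0.16) in XY. GstE7 had its larger ratios in the nulls, at 0.70 (SE 0.16) in tra and 0.62 (SE 0.11) in dsxD against 1.69 (SE 0.17) in the XX null and 1.19 (SE 0.21) in the XY null, with 1.16 (SE 0.24) in fru4-40/frup14. In fruw12/frucham5 both were lower, GstE7 at -0.50 (SE 0.15) and GstE8 at -0.43 (SE 0.14). Those calls were lost without array 1 (GstE7 -0.52, limma adjusted p = 0.16; GstE8 -0.37, 0.26) and without array 2 (GstE7 -0.30, 0.17; GstE8 -0.28, 0.288). The dsxD call of GstE7 was lost without array 2 (0.61, limma adjusted p = 0.153).

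GstE3 was higher by smaller amounts, from 0.54 (SE 0.13) in tra to 0.98 (SE 0.20) in dsxD, and was at 0.17 in fruw12/frucham5. It lost its call without tra array 3 (0.43, limma adjusted p = 0.18) and without fru4-40/frup14 array 3 (0.53, 0.177). GstE9 was called in tra (0.65, SE 0.11), the XX null (1.00, SE 0.14) and the XY null (1.41, SE 0.16). GstE14, known as noppera-bo and needed for making ecdysone, lies apart from the cluster. It was called in dsxD (0.89, SE 0.15), the XX null (1.04, SE 0.094), the XY null (0.94, SE 0.12) and fru4-40/frup14 (0.79, SE 0.21, call lost without array 3, 0.64, limma adjusted p = 0.175). GstE5 was higher in dsxD (0.97, SE 0.19), the XY null (0.82, SE 0.20) and fruw12/frucham5 (0.39, SE 0.13). The last call was lost without array 1 (0.32, limma adjusted p = 0.275), 3 (0.37, 0.208) or 4 (0.32, 0.304).

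Inside the cluster the change was not even. GstE2, named here after its values were seen, was called once, at 0.60 (SE 0.12) in the XX null. GstE4, between GstE3 and GstE5, was called higher nowhere and lower in fruw12/frucham5 (-0.49, SE 0.16). That call was lost without array 1 (-0.49, limma adjusted p = 0.211), 2 (-0.33, 0.296) or 3 (-0.45, 0.201). GstE10, at the end of the cluster, was at -0.03 in dsxD, -0.25 in the XX null and -0.05 in fruw12/frucham5, not called, and had too few values to be tested in the other 3 genotypes. Neighbouring paralogs are alike in sequence, and how far each probe reads its own gene alone was not tested.

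**Figure D3:**
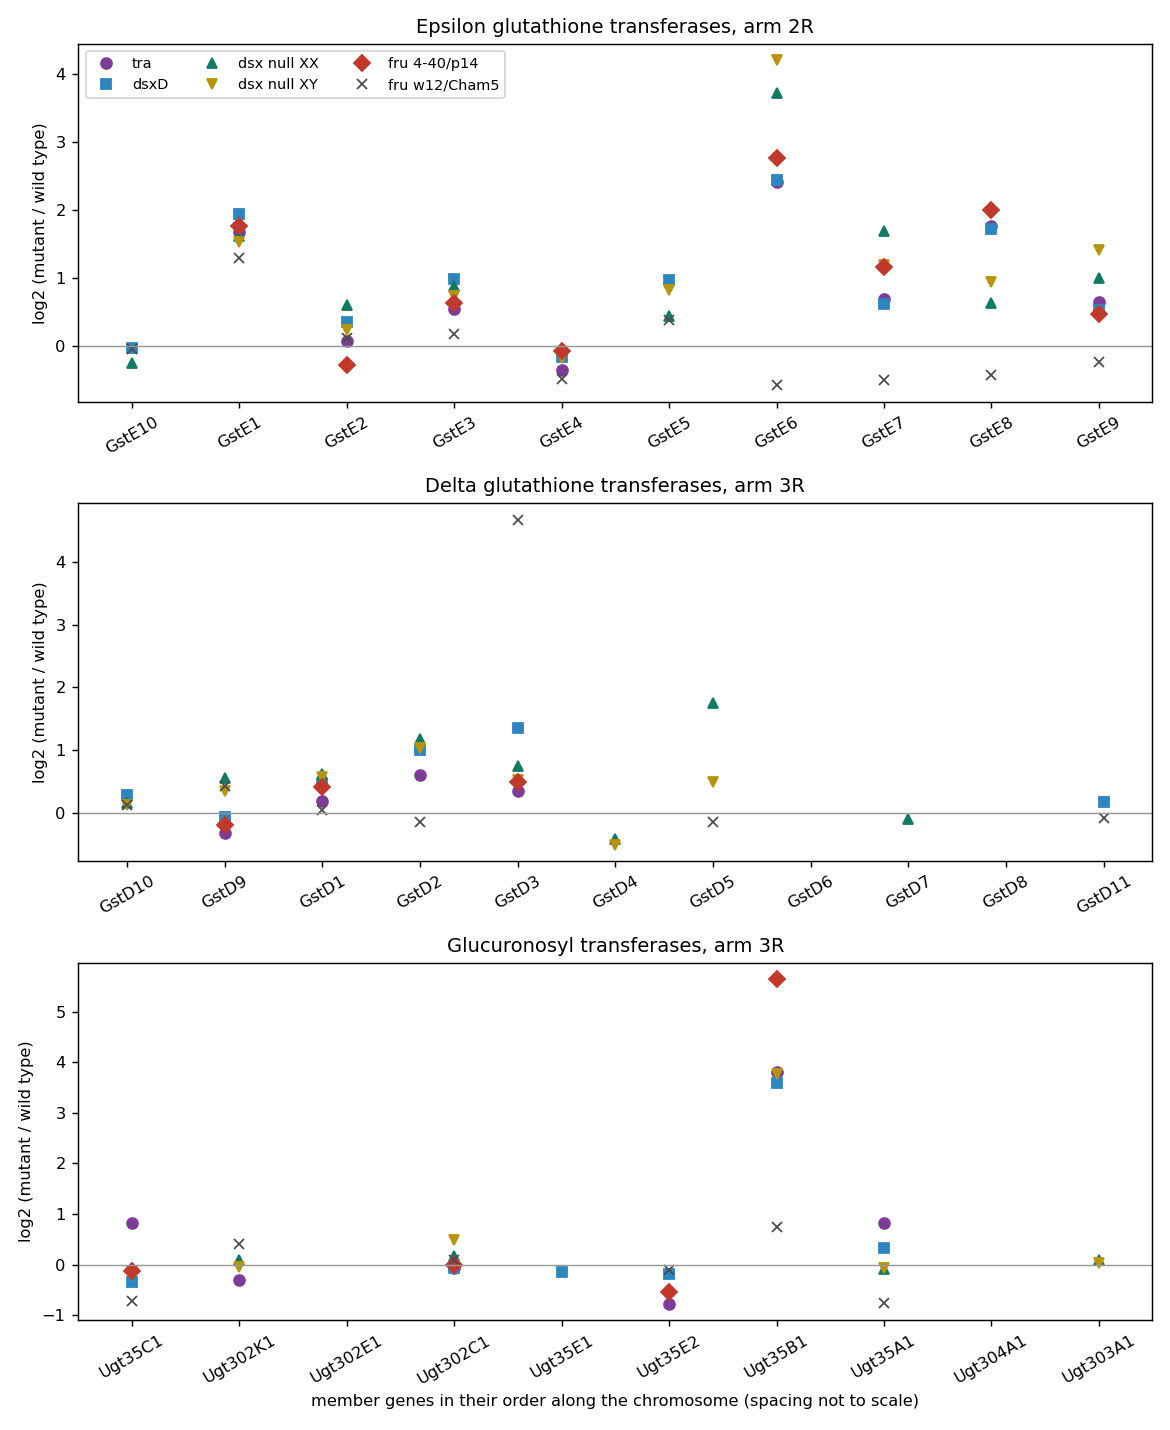
Mean log2 ratio in mutant heads (y axis) of the genes of 3 clusters, in their order along the chromosome arm (x axis, not to scale); each symbol is 1 mutant genotype and missing symbols were not tested. GstE6 and Ugt35B1 stand above their neighbours in the Canton S comparisons, and GstD3 does so in fruw12/frucham5, at 4.68.

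In the Delta class, the genes called were GstD9 and GstD1 to GstD5, which follow each other in the cluster. Higher were 0 of 4 tested probes in tra, 2 of 6 in dsxD, 5 of 8 in the XX null, 3 of 7 in the XY null, 2 of 3 in fru4-40/frup14 and 2 of 7 in fruw12/frucham5, and 1 was lower, GstD4 in the XY null. GstD1, the enzyme known for breaking down DDT, was called in the XX null (0.62, SE 0.13), the XY null (0.57, SE 0.10) and fru4-40/frup14 (0.41, SE 0.089, 4 arrays between 0.35 and 0.44). GstD2 was called in dsxD (1.00, SE 0.16), the XX null (1.18, SE 0.24) and the XY null (1.04, SE 0.28). XX null array 3 read 2.22 for GstD2 and the other 3 arrays 0.72, 0.94 and 0.83. The XY null arrays read 1.29, -0.11, 1.76 and 1.21, and the call was lost without array 4 (0.98, limma adjusted p = 0.165).

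GstD3 gave the largest ratio of the Gst family. In fruw12/frucham5 heads it stood at 4.97, 4.89 and 4.18 on the 3 arrays with a value, a mean of 4.68 (SE 0.17, 25.7-fold, limma adjusted p = 3.44e-05). In fru4-40/frup14 heads it was 0.28, 0.63 and 0.55 (mean 0.49, SE 0.12), so the combinations did not overlap. In dsxD heads it was 0.60, 1.12, 1.84 and 1.90 (mean 1.36, SE 0.23, 2.57-fold). The XX null gave a mean of 0.75 (SE 0.15) and the XY null 0.53 (SE 0.14, call lost without array 4, 0.51, limma adjusted p = 0.177), while tra arrays read 0.64, 0.20 and 0.20, which was not called.

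GstD5 was called in the XX null alone among the fits, at 1.01, 1.90, 2.26 and 1.84 (mean 1.75, SE 0.19, 3.37-fold, limma adjusted p = 0.00168). On the XY null arrays it read 1.75, 0.34, 1.82 and -1.95, and the difference between the nulls was not called. GstD4, 1 of the 4 members called only lower, was at -0.51 (SE 0.19) on 3 XY null arrays, a call lost without array 4 (-0.51, limma adjusted p = 0.188), where the gene held no value. GstD9 was higher in the XX null (0.55, SE 0.14, lost without array 4, 0.47, limma adjusted p = 0.184) and in fruw12/frucham5 (0.42, SE 0.10).

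The Omega class has 3 genes with 4 probes, and its members can reduce oxidised thiols. Higher were 2 of 4 tested probes in tra, 0 of 3 in dsxD, 3 of 3 in the XX null, 4 of 4 in the XY null and 3 of 3 in fru4-40/frup14, while 1 of 4 was lower in fruw12/frucham5. GstO1 was 0.48, 0.70, 1.58 and 1.43 on the fru4-40/frup14 arrays (mean 1.05, SE 0.19), and -0.49, -0.65, -0.48 and -0.37 on the fruw12/frucham5 arrays (mean -0.50, SE 0.094), with no overlap. It was 0.65 (SE 0.12) in the XY null. The 2 GstO2 probes gave 0.51 (SE 0.087, probe 1414) and 0.56 (SE 0.11, probe 15013) in the XX null and 0.41 (SE 0.14) and 0.48 (SE 0.11) in the XY null. In tra they stood at 0.25 for probe 1414, not called, and 0.85 (SE 0.14) for probe 15013. Probe 1414 lost its XY call without array 3 (0.29, limma adjusted p = 0.228) or 4 (0.36, 0.307). GstO3 was called in tra (0.42), the XX null (0.36), the XY null (0.55) and fru4-40/frup14 (0.47). It lost the call without tra array 1 (0.43, limma adjusted p = 0.232), 3 (0.38, 0.295) or 4 (0.35, 0.223), XX null array 4 (0.36, 0.157), or fru4-40/frup14 array 3 (0.33, 0.261) or 4 (0.41, 0.197).

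Of the Sigma, Theta and Zeta classes, 7 genes, the calls in mutant heads were those of GstS1, GstT4 and GstZ1. GstS1, an abundant enzyme that conjugates products of lipid oxidation, was higher in the XX null (0.86, 1.15, 1.46 and 1.27, mean 1.19, SE 0.12, 2.28-fold) and in the XY null (0.55, 0.92, 1.22 and 0.88, mean 0.89, SE 0.13). It was higher by less in fru4-40/frup14 (0.43, SE 0.11, lost without array 3, 0.41, limma adjusted p = 0.16). GstT4 was higher in the XY null (0.39, SE 0.12) and lower in fruw12/frucham5 (-0.50, SE 0.11). Its XY call was lost without array 3 (0.36, limma adjusted p = 0.167) or 4 (0.28, 0.298). GstZ1, of the class that takes part in tyrosine breakdown, was lower in tra (-0.46, SE 0.12), on all 4 arrays. That call was lost without array 2 (-0.40, limma adjusted p = 0.244) or 3 (-0.44, 0.201).

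Among the glucuronosyl transferases, Ugt35B1 had the highest ratio of all transferases in every Canton S comparison in which it was tested except that of the dsx null XY flies, where it was highest among the Ugt genes. On the tra arrays its log2 ratio was 3.73, 4.13, 3.92 and 3.47, a mean of 3.81 (SE 0.14, 14-fold, limma adjusted p = 1.84e-06). On the dsxD arrays it was 3.70, 4.72, 2.26 and 3.70, a mean of 3.59 (SE 0.35, 12.1-fold, limma adjusted p = 0.00406). On 3 XY null arrays it was 3.20, 3.74 and 4.32, a mean of 3.76 (SE 0.22, 13.5-fold, limma adjusted p = 0.000309). The tra and XY null arrays lay inside the wider range of the dsxD arrays. Only 2 XX null arrays held a value, 4.91 and 3.94, too few to be tested. The fru4-40/frup14 arrays stood above those of every other genotype, at 5.63, 5.55, 6.01 and 5.42, a mean of 5.65 (SE 0.12, 50.3-fold, limma adjusted p = 3.81e-07). The fruw12/frucham5 arrays, at 0.81, 0.75, 0.76 and 0.65, lay far below them and still above 0 (mean 0.74, SE 0.09, 1.67-fold, limma adjusted p = 0.00282). Between the wild-type sexes the gene read 0.39 and 0.31 on 2 Canton S arrays and from -0.20 to 0.13 in Berlin, and it was not called.

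**Figure D4:**
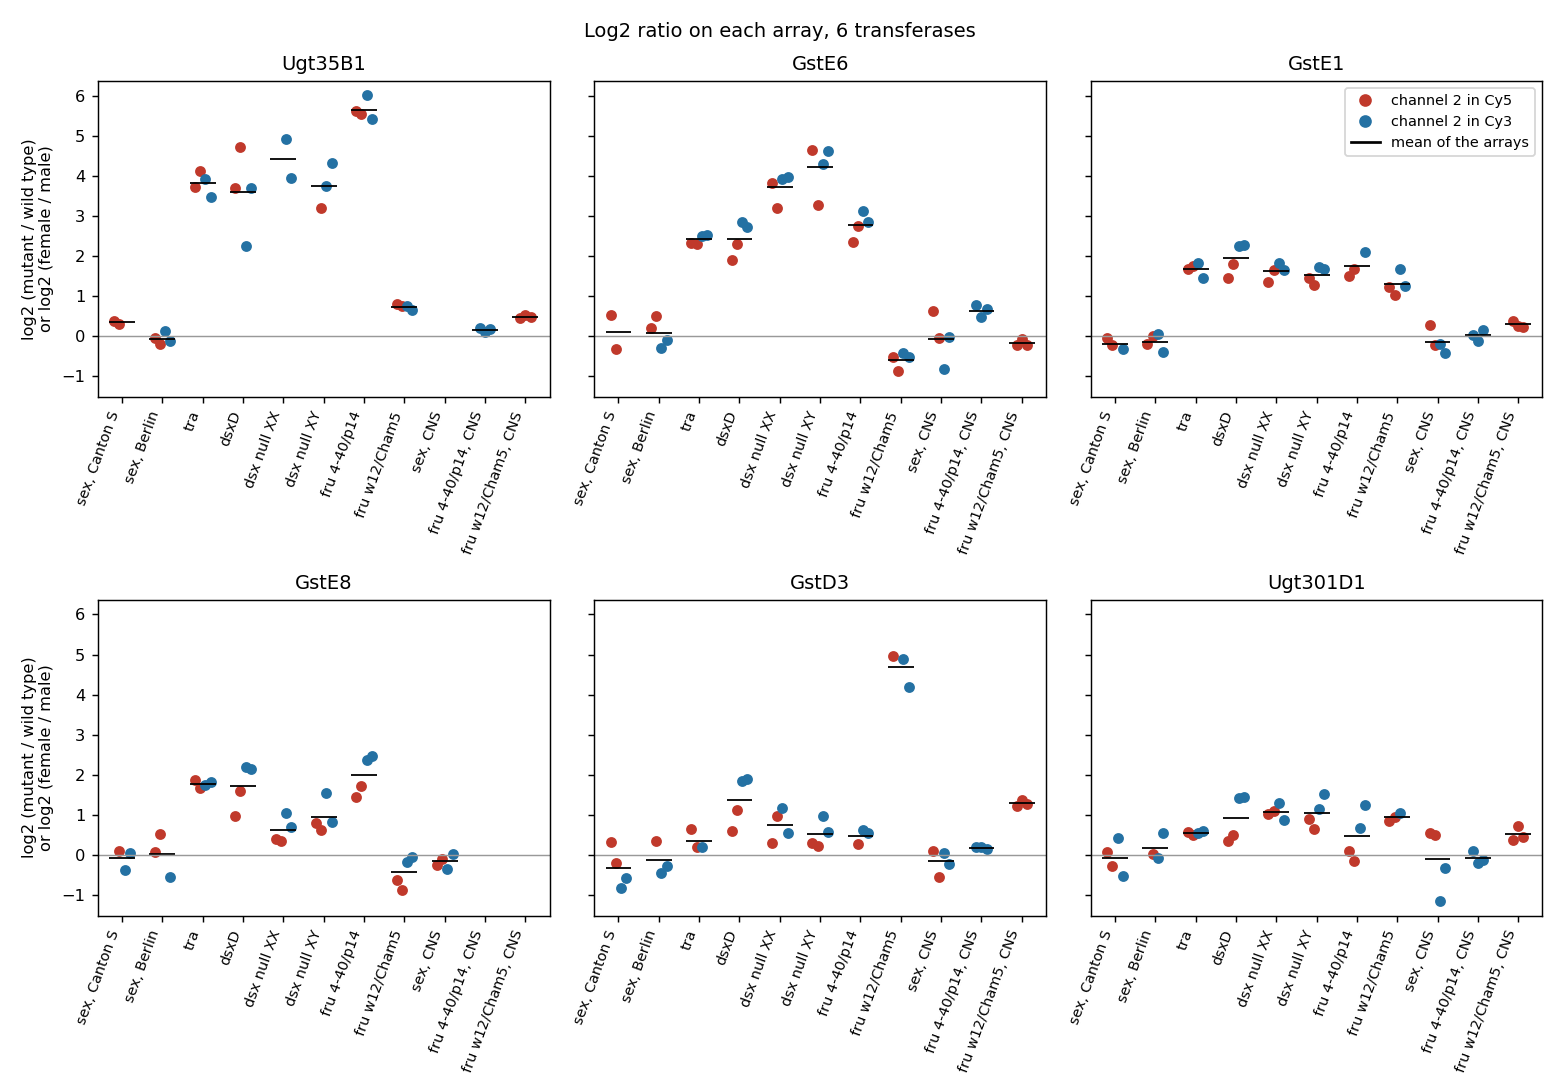
Log2 ratio on each array (points, y axis) of 6 transferases in each group of arrays (x axis), coloured by the dye of channel 2, with the mean as a line. Ugt35B1, GstE6, GstE1 and GstE8 lie above 0 on every valued array of tra, dsxD, both dsx nulls and fru4-40/frup14, while GstD3 peaks in fruw12/frucham5 heads between 4.18 and 4.97.

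The genes beside Ugt35B1 did not all rise with it. Of 4 tested Ugt35 probes in tra, 3 were higher and 1 lower. Ugt35C1, 0.60, 1.53, 0.79 and 0.41 in tra (mean 0.83, SE 0.18), was at -0.35 in dsxD and -0.72 (SE 0.13) in fruw12/frucham5. Ugt35A1, 0.73, 0.50, 0.74 and 1.35 in tra (mean 0.83, SE 0.15), was -0.60, -0.71, -0.73 and -1.0 in fruw12/frucham5 (mean -0.76, SE 0.10, limma adjusted p = 0.00433). Both genes thus moved in opposite directions in these genotypes, with no overlap between their arrays. Ugt35E2 was lower in tra (-0.78, SE 0.21) and in fru4-40/frup14 (-0.54, SE 0.095, 4 arrays between -0.61 and -0.38). Its tra call was lost without array 1 (-0.61, limma adjusted p = 0.182) or 3 (-0.61, 0.231). Of 2 more genes of the cluster, named after their values were seen, Ugt302C1 was higher in the XY null (0.48, SE 0.16), and Ugt302K1 in fruw12/frucham5 (0.41, SE 0.14).

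Outside that cluster, Ugt301D1 was called higher in 5 of the 6 mutant genotypes. It read 0.57, 0.50, 0.54 and 0.61 in tra (mean 0.56, SE 0.11), and 1.02, 1.11, 1.31 and 0.88 in the XX null (mean 1.08, SE 0.10). It read 0.89, 0.65, 1.15 and 1.53 in the XY null (mean 1.06, SE 0.15) and 0.86, 0.95 and 1.06 in fruw12/frucham5 (mean 0.95, SE 0.11). The tra arrays lay below all XX null arrays. In dsxD the arrays split by dye, 0.34 and 0.50 against 1.43 and 1.44 (mean 0.93, SE 0.21). That call was lost without array 2 (1.07, limma adjusted p = 0.182), 3 (0.76, 0.247) or 4 (0.76, 0.207). In fru4-40/frup14 it read 0.09, -0.15, 0.68 and 1.26 and was not called. A split by dye was not particular to this gene. In fru4-40/frup14 GstE14 read 0.25 and 0.30 against 1.26 and 1.37, and GstE3 0.20 and 0.29 against 0.94 and 1.08. GstO1 there read 0.48 and 0.70 against 1.58 and 1.43. In dsxD GstD3 read 0.60 and 1.12 against 1.84 and 1.90.

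Ugt49B1 and Ugt49C1 were, besides Ugt35B1, the Ugt genes higher in both fru combinations. Ugt49C1 stood at 0.74, 0.69, 0.93 and 0.78 in fru4-40/frup14 (mean 0.78, SE 0.094) and at 0.84, 1.29, 1.41 and 1.10 in fruw12/frucham5 (mean 1.16, SE 0.12). The ranges overlapped, while the difference of -0.38 was called (limma adjusted p = 0.115). Ugt49B1 was at 0.50 (SE 0.16) and 1.12 (SE 0.15). Its fru4-40/frup14 call was lost without array 2 (0.56, limma adjusted p = 0.156), 3 (0.42, 0.275) or 4 (0.37, 0.238). In tra, Ugt49C1 was at 0.58 (SE 0.13) and Ugt49B1 at 0.63 (SE 0.16, lost without array 1, 0.49, limma adjusted p = 0.198, or 2, 0.53, 0.191). Ugt49B1 was at 0.38 (SE 0.14) in the XY null, lost without array 4 (0.38, limma adjusted p = 0.211).

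Ugt37A3 varied widely between arrays. In tra it read 3.30, 2.03, 1.56 and 0.32 (mean 1.80, SE 0.37, 3.49-fold, limma adjusted p = 0.0243), and in dsxD 0.34, 0.15, 0.06 and 0.15, which was not called. In fruw12/frucham5 it was 0.69, 0.67 and 0.14 (mean 0.50, SE 0.14). Ugt36D1 (0.34) in fruw12/frucham5 and Ugt37D1 (0.28) in fru4-40/frup14 were the other calls of the Ugt36 and Ugt37 genes, both named after their values were seen. Of the 12 probes of these genes, 5 could be tested in dsxD, 3 in the XX null and 4 in the XY null, and 0 were called by limma.

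The comparison of the fru combinations asked which changes were shared by 2 independent sets of alleles, set against different control strains. Of 34 transferases tested in both, 18 differed between the combinations in limma's test of the difference, 13 of them higher and 5 lower in fru4-40/frup14, where 23.9% of all probes differed. Of the 17 called in fru4-40/frup14 and 19 in fruw12/frucham5, 9 were shared, 52.9% of the first and 47.4% of the second, and 5 of the second were not tested in fru4-40/frup14. Over all probes the shared calls were 27.5% and 25% of the 2 lists. Higher in both were 5 (GstE1, GstD3, Ugt35B1, Ugt49B1 and Ugt49C1). Opposite in direction were 4 (GstE6, GstE7, GstE8 and GstO1), all higher in fru4-40/frup14. Of the calls shared over all probes, 32.3% were higher in both and 48.8% opposite, where the transferases gave 55.6% and 44.4%. The difference in log2 ratio was 4.91 for Ugt35B1 (SE 0.14, limma adjusted p = 5.64e-09), 3.35 for GstE6 (SE 0.17, 6.84e-07) and -4.20 for GstD3 (SE 0.22, 5.77e-06). It was 2.43 for GstE8 (SE 0.25), 1.66 for GstE7 (SE 0.32) and 1.55 for GstO1 (SE 0.23). Without fru4-40/frup14 array 2 or 3, 11 members differed.

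**Figure D5:**
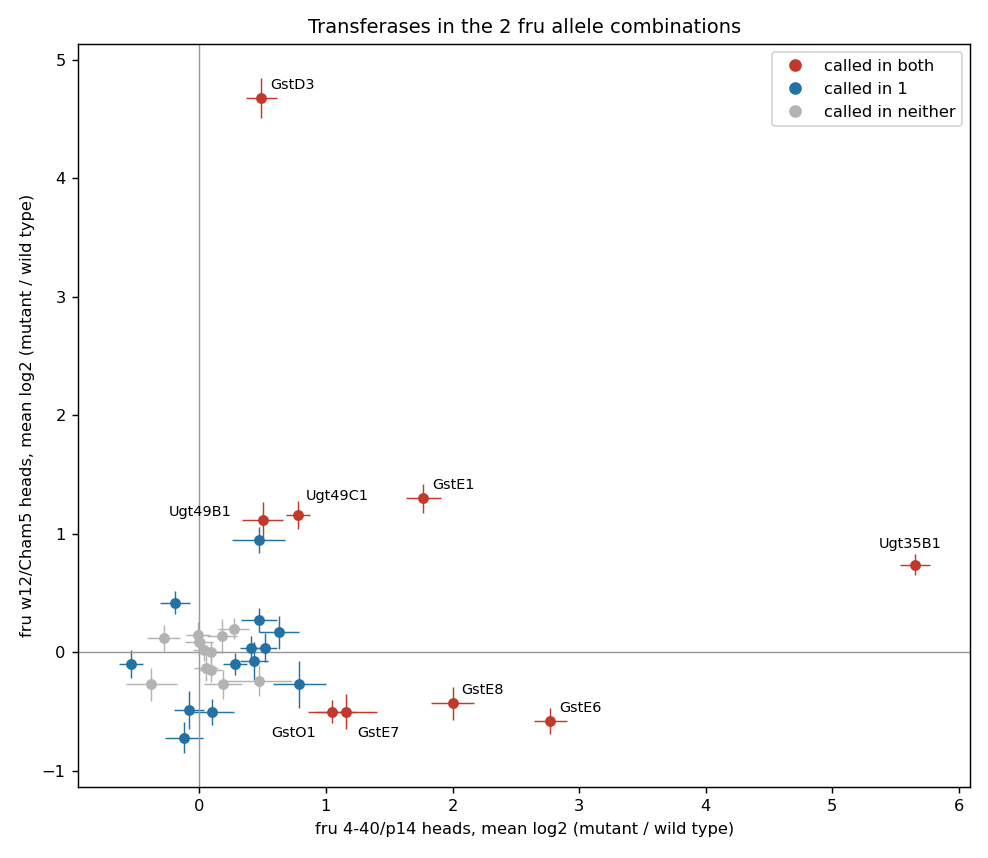
Mean log2 ratio (mutant over wild type) of the 34 transferases tested in heads of both fru combinations, fru4-40/frup14 on the x axis and fruw12/frucham5 on the y axis, with bars of 1 SE; colour gives the number of combinations with a call. GstD3 lies near the y axis at 4.68 and Ugt35B1 at 5.65 on the x axis, with GstE6, GstE7, GstE8 and GstO1 below 0 on the y axis.

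Fitting the combinations together averaged over these differences. The joint means were 3.20 for Ugt35B1 (SE 0.74, limma adjusted p = 0.0367) and 2.58 for GstD3 (SE 0.70, 0.0807), each resting mostly on 1 combination. GstE1 was at 1.50 (SE 0.12), Ugt49C1 at 0.97 (SE 0.093), Ugt49B1 at 0.81 (SE 0.15), Ugt301D1 at 0.68 (SE 0.16), GstO3 at 0.37 (SE 0.094) and Ugt50B3, named after its values were seen, at 0.24 (SE 0.074). GstE6, with opposite values in the combinations, was not called. GstE3 (0.40), Ugt35C1 (-0.42) and Ugt35E2 (-0.35) each lost the joint call without 1 or more arrays. GstE3 did so without any of fru4-40/frup14 arrays 1 to 4 or fruw12/frucham5 arrays 3 and 4 (limma adjusted p from 0.167 to 0.252). Ugt35C1 did so without fru4-40/frup14 array 1 (-0.42, 0.162), and Ugt35E2 without fru4-40/frup14 array 2, 3 or 4 (-0.30, 0.158; -0.31, 0.166; -0.31, 0.16).

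In wild-type heads few transferases were called between the sexes. Of 42 tested, 0 were higher in females (all probes 5.1%) and 2, or 4.76%, were lower (3.98%) by limma, with 1 called by the methods' t-test. At an unadjusted p under 0.05 in limma were 6, or 14.3%, against 18.6% of all probes. The lower share was thus near that of all probes. GstD9 was lower in females on all 8 arrays, which ran from -0.62 to -0.01 with a median of -0.27 (mean -0.29, SE 0.08, adjusted p = 0.0763). GstS1 was lower on 7 of 8, from -1.35 to 0.04 with a median of -0.29 (mean -0.45, SE 0.14, limma adjusted p = 0.11). Its call was lost without Canton S array 1 (-0.40, adjusted p = 0.231) or Berlin array 6 (-0.32, 0.179) or 7 (-0.46, 0.175). With Canton S arrays alone its mean was -0.38 and with Berlin arrays alone -0.51, and neither strain alone gave a call. Without Canton S array 3, 5 transferases were called, and without Berlin array 6 or 7, 1 was. The sex effect differed between the strains for 0 of 33 tested transferases (all probes 0%), none of which had an unadjusted p under 0.05, with a median half-width of the 95% interval of 0.40. The means of all 42 lay between -0.45 and 0.25, well under the ratios of GstE6 and Ugt35B1 in the Canton S mutants.

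In the CNS, 0 of 43 transferases were called between females and males (all probes 0.0602%), with 2 at an unadjusted p under 0.05 in limma and 0 called by the methods' t-test. The median half-width of the 95% interval was 0.43 on the log2 scale. Without array 1, 1 transferase was called. Ugt35B1 held no value on these 4 arrays. In the fru CNS 0 of 44 were called (all probes 0.269%), with 9 at an unadjusted p under 0.05 in limma and 10 in the methods' t-test, which called 0. The 9 were 20.5% of those tested, against 4.15% of all probes under that p in limma. Here 28 of the 44, or 63.6%, had opposite mean signs in the combinations, as did 78.5% of all probes. With the dye as a term, which is also the combination, 12 were called, 10 higher and 2 lower, against 5.6% of all probes. Of the 12, 8 had the same mean sign in both combinations. Ugt49B1, GstE6, Ugt35C1 and GstZ2 did not, and their means average over opposite signs. The 12 are named here after their values were seen.

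GstD3 led that set. In fruw12/frucham5 CNS it read 1.22, 1.37 and 1.28, and in fru4-40/frup14 CNS 0.19, 0.21 and 0.15, so that all 6 arrays were above 0 (mean 0.74, SE 0.04, limma adjusted p = 0.00135 with the dye term). Ugt35B1 was at 0.45, 0.53 and 0.48 and at 0.20, 0.12 and 0.19 (mean 0.33, adjusted p = 0.0165). Ugt49B1 read 0.89, 0.94 and 0.95 against -0.29, -0.25 and -0.10. GstE6 was below 0 on the fruw12/frucham5 arrays (-0.22, -0.07 and -0.21) and above on the fru4-40/frup14 arrays (0.78, 0.48 and 0.67). The order was the same in heads, but in the CNS combination and dye cannot be told apart. Opposite mean signs were found there for 78.5% of all probes. The other 8 were both GstO2 probes, GstT2, GstE5, Ugt35C1 and Ugt49C1, which were higher, and GstZ2 and Ugt302K1, which were lower. Their means lay between -0.23 and 0.40. Ugt35C1 was at -0.01 in fruw12/frucham5 and 0.60 in fru4-40/frup14, and GstZ2 at 0.01 and -0.44.

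The fru effect differed between heads and CNS for 5 of 34 transferases, 4 higher in heads and 1 lower (all probes 3.08%). The differences were 2.87 for Ugt35B1 (SE 0.66, limma adjusted p = 0.0428), 1.85 for GstD3 (SE 0.43, 0.0533), 1.34 for GstE1 (SE 0.16, 0.00061), 0.67 for Ugt49C1 (SE 0.11, 0.00407) and -0.71 for Ugt35C1 (SE 0.13, 0.0125). The differences of Ugt35B1 and GstD3 rested mostly on 1 combination each. Ugt35B1 was at 5.65 in heads and 0.17 in the CNS in fru4-40/frup14, and at 0.74 and 0.49 in fruw12/frucham5. GstD3 was at 4.68 in heads and 1.29 in the CNS in fruw12/frucham5, and at 0.49 and 0.19 in fru4-40/frup14. With the combinations together, GstE1 was at 1.50 in heads and 0.16 in the CNS. The CNS RNA was amplified before labelling and the head RNA was not, so tissue and amplification cannot be told apart. Without fru4-40/frup14 head array 3 or 4, or fruw12/frucham5 head array 3, 3 members differed.

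The mutants of the tra and dsx branch were also set against each other. Between tra and dsxD pseudomales 1 of 41 transferases differed (all probes 0.417%), Ugt35C1, by 1.18 (SE 0.22, limma adjusted p = 0.0764), with means of 0.83 and -0.35. Without tra array 4 or dsxD array 1, 2 transferases were called. Ugt35C1 lost its call without tra array 3 (1.20, 0.228) or dsxD array 2 (1.20, 0.206), 3 (1.22, 0.175) or 4 (1.19, 0.164). Between dsxD and the XX null 4 of 32 differed, 1 higher (3.12%) and 3 lower (9.38%) in dsxD (all probes 5.75% in either direction). GstE6 was lower in dsxD by a log2 difference of -1.29 (SE 0.24, adjusted p = 0.0179), GstE7 by -1.07 (SE 0.20, 0.0254) and GstD9 by -0.62 (SE 0.18, 0.121). GstE8 was higher by 1.10 (SE 0.27, 0.0611). GstD9 lost its call without dsxD array 1 (-0.58, 0.195), 2 (-0.64, 0.212), 3 (-0.66, 0.158) or 4 (-0.61, 0.2) or XX null array 3 (-0.50, 0.272) or 4 (-0.54, 0.288), and GstE8 without XX null array 1 (1.02, 0.163). The count was 2 without XX null array 1, 3 or 4. Between the XX and XY nulls 0 of 39 differed (all probes 0.751%) and 0 had an unadjusted p under 0.05 in limma, with a median half-width of the interval of 0.42.

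Genes that supply the cosubstrates were counted in the same fits. Of the genes that make or use glutathione, 3 of 11 tested probes were higher in tra (all probes 5.04%). In dsxD 2 of 12 were higher (3.36%), in the XX null 5 of 10 (11.7%) and in the XY null 6 of 11 (13.4%). In fru4-40/frup14 6 of 10 were higher (9.74%) and in fruw12/frucham5 4 of 10 (8.76%), with 0 lower in all of these genotypes. Gss1 (probes 3922 and 15718) and Gss2 (probes 8809 and 6089), for glutathione synthetase, made up most of these higher calls. Gss2 probe 8809 stood at 0.78 in tra, 0.65 in dsxD, 1.11 in the XX null and 1.12 in the XY null. It was at 0.91 in fru4-40/frup14 and 0.62 in fruw12/frucham5. Probe 6089 was not called in tra or dsxD. It was at 0.59 in the XX null, 0.83 in the XY null, 0.57 in fru4-40/frup14 and 0.30 in fruw12/frucham5. Gclm, a subunit of the enzyme of the first step of glutathione synthesis, was higher in the XY null (0.83, SE 0.10) and, given after its value was seen, in fru4-40/frup14 (0.46, SE 0.13). No probe of this list was called between the wild-type sexes.

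Of 6 other genes with glutathione transferase domains or activity, gfzf was higher in all 5 Canton S comparisons, from 0.50 in the XX null to 1.12 in fru4-40/frup14. By probe 2488, the microsomal enzyme gene Mgstl was higher in the XY null (0.92), fru4-40/frup14 (0.79) and fruw12/frucham5 (0.49). Its probe 6254 was called in no mutant genotype, and was higher in females in wild-type heads (0.33, limma adjusted p = 0.132). The eye pigment gene se was higher in dsxD (0.96) and the XX null (0.56) and lower in fruw12/frucham5 (-0.45). For sugar supply, sgl, which makes UDP-glucuronate, was higher in tra (0.65, SE 0.12), and Galt in the XX (0.55) and XY (0.97) nulls. UGP of the same list was higher in fru4-40/frup14 (0.52, SE 0.15). Of the export pumps, 1 of 5 tested was higher in each Canton S comparison, MRP in tra (0.41) and Mdr50 in dsxD (0.45), the XX null (0.36), the XY null (0.41) and fru4-40/frup14 (0.38). Mdr49 was lower in fru4-40/frup14 (-0.36). In fruw12/frucham5, 2 of 6 were higher, Mrp4 (0.96) and Mrp5 (0.63), and Mdr65 was lower (-0.33). Of the regulators of detoxification genes only tgo was called, at -0.27 in the XX null. The list of hydrolases and sulfotransferases had 1 of 10 tested probes higher in tra, and 0 of 10 higher and 1 lower in dsxD. In the XX null 2 of 8 were higher and 1 lower, and in the XY null 3 of 8 were higher. In fru4-40/frup14 1 of 6 was higher, and in fruw12/frucham5 0 of 9 were higher and 3 lower. Between the wild-type sexes in heads 1 of 6 was higher in females. The shares of all probes are those given above.

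Some marker lists of cell types held calls in the mutant heads, and some also between the wild-type sexes. In wild-type heads 3 of 7 neuron and 2 of 5 glia probes were lower in females (all probes 3.98%). Higher in females were 2 of 5 muscle, 1 of 8 fat body and 1 of 4 antenna probes (5.1%). The antenna and gut lists held at most 1 call in any comparison. The shares of all probes called in the mutants are those given above. Photoreceptor genes, 6 tested, were higher for 4 in tra, 4 in dsxD, 6 in each null and 5 in fru4-40/frup14, with median log2 ratios of 1.07, 1.06, 1.83, 1.40 and 0.90. In fruw12/frucham5 0 were higher and 1 lower, with a median of -0.05. Fat body genes were higher for 3 of 9 in tra, 3 of 9 in dsxD, 5 of 9 in the XX null, 5 of 8 in the XY null (1 lower), 4 of 9 in fru4-40/frup14 and 3 of 10 in fruw12/frucham5 (3 lower). The median log2 ratios of the fat body list were 0.22, -0.24, 0.41, 0.73, 0.10 and -0.10 in that order. Fbp1, a larval serum protein receptor, had the highest ratio of the list in all but the XY null, from 1.20 to 2.21 over the 6 genotypes, while Obp99b was lower in the XY null (-1.07) and Lsp2 (-0.76), AkhR (-0.62) and bmm (-0.33) were lower in fruw12/frucham5. Of these, AkhR, bmm and the Fbp1 values of the XY null and fruw12/frucham5 are given after their values were seen. Neuron genes were lower for 3 of 7 in the XX null (all probes 9.74%) and 5 of 7 in the XY null (12.4%). In fru4-40/frup14 3 of 7 were lower (10.5%), and in fruw12/frucham5 1 of 7 was higher (8.76%). Muscle probes, 5 tested, were lower for 3 in the XY null, and 4 were higher and 1 lower in fruw12/frucham5. The XX null and fru4-40/frup14 each had 1 muscle probe higher and 1 lower. Glia probes were lower for 1 of 5 in dsxD, 1 of 4 in the XX null (1 higher), and 2 of 5 in the XY null and fru4-40/frup14. Haemocyte genes were lower for 2 of 4 in tra, 1 of 3 in dsxD, 0 of 5 in the XX null, 0 of 2 in the XY null, 2 of 3 in fru4-40/frup14 and 1 of 3 in fruw12/frucham5, with 1 higher in the XX null. Hml was at -2.37 in tra, -1.39 in dsxD and -2.15 in fru4-40/frup14, and NimC1 at 1.52 in the XX null. The median of the haemocyte list was -1.14 in tra and -0.02 in the XX null. The part of these cell types in the transferase ratios was not tested.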

How the data were processed

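The deposited values are log2 ratios from arrays of long oligonucleotides. The authors looked over each scan and dropped bad spots, then required more than 75% of a spot's pixels to lie 1 SD or more over background, and applied lowess normalisation. Software versions are not given in the sources used here. A missing value is a spot that failed these filters. The deposited sign was already turned for the dye. The tra and dsx ratios were turned here to mutant over wild type. The control strain of the fru arrays rests on the channel descriptions and strain fields, which give Canton S for fru4-40/frup14 and w; Berlin for fruw12/frucham5. The titles go against this: all fru head titles name wBerlin, and in the CNS the strains of the titles are exchanged. The grouping of fru4-40/frup14 with the other Canton S comparisons depends on this choice. The table holds no read or pixel depth, and the number of arrays limits the precision.

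Probes were named through the gene number or accession of the array's annotation: 12912 of 16320 have 1 current symbol. All 70 current genes of both families were found on the array. Gene order along the chromosomes comes from a newer assembly than the array's design, and no coordinates are given.

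The tests used limma 3.58.1 under R 4.3.3, each of the mean log2 ratio against 0, or of the difference of 2 groups, fitted over all probes tested. Errors are limma's moderated SE. The protocol states that the samples of a comparison were independent biological samples, so p-values measure the spread between these. The code was tested on simulated data. Alternatives were a value on every array or on at least 2, centring of arrays, a threshold of 0.05, a plain 2-sided t-test, a dye term, each array left out, 1 strain alone, and a replicate block. Same-numbered arrays of tra and dsxD (0.195 to 0.477), dsxD and XX null (0.23 to 0.456) and XX and XY null (0.32 to 0.505) correlated in their deviations, so the numbers were taken as pairs in that block. In 5 of the 12 pairs, 3 of them of tra and dsxD, an array correlated more with a differently numbered one. They also share the dye orientation.

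The members and lists were chosen with earlier results of these data known. Named members are those called in at least 2 comparisons (the joint and separate fits of fru heads counting once), up to 8 called in each direction of a comparison with the largest absolute log2 ratio, and up to 6 called in a difference. Of each pathway and marker list, up to 3 called genes with the smallest p could be named. Members and genes outside this rule are said to be named after their values were seen.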

Additional observations from a re-analysis of the deposited data

Results flagged for a closer look

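A test of the difference between groups singled out 16 values, all given above with their errors. Between the fru combinations these were Ugt35B1 (4.91), GstD3 (-4.20), GstE6 (3.35), GstE8 (2.43), GstE7 (1.66) and GstO1 (1.55). Between tra and dsxD pseudomales it was Ugt35C1 (1.18), and between dsxD and the XX null GstE6 (-1.29), GstE8 (1.10), GstE7 (-1.07) and GstD9 (-0.62). Between fru heads and CNS they were Ugt35B1 (2.87), GstD3 (1.85), GstE1 (1.34), Ugt35C1 (-0.71) and Ugt49C1 (0.67).

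Of 89 sets of 4 arrays checked with Dixon's criterion, which chance passes in about 1 of 20, 2 held an array apart from the others. XX null array 3 read 2.22 for GstD2, with the others from 0.72 to 0.94, and XX null array 4 read 1.22 for GstE14, with the others from 0.96 to 0.99.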

How the results depend on the processing

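No named member changed direction under any alternative tried: of 1274 alternative values, 1099 kept direction and call and 175 lost the call. Counts of members called moved by over 1.5 times as follows. The methods' t-test called 7 in tra (17 by limma), 3 in dsxD (11), 10 in the XX null (18), 12 in the XY null (22), 6 in fru heads together (11), 8 in fru4-40/frup14 (17), 7 in fruw12/frucham5 (19) and 1 between the sexes in heads (2). At an adjusted p under 0.05 there were 14 in the XY null, 5 in fru heads together, 11 in fru4-40/frup14, 12 in fruw12/frucham5, 0 between the sexes in heads, 7 between the fru combinations (18), 0 between tra and dsxD (1) and 2 between dsxD and the XX null (4). A dye term gave 26 in dsxD (20 higher, 6 lower), 4 between the sexes in heads, 1 in the CNS and 12 in the fru CNS (0). Between the sexes in heads, a value on at least 2 arrays gave 1, Canton S alone 0 and Berlin alone 0. A value on every array gave 2 between fru heads and CNS (5). These causes were not tested.

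Leaving out 1 array gave 13 to 15 members in tra, 7 to 12 in dsxD, 15 to 18 in the XX null, 13 to 19 in the XY null, 6 to 14 in fru heads together, 9 to 14 in fru4-40/frup14, 9 to 15 in fruw12/frucham5 and 0 in the fru CNS. The wild-type sexes gave 1 to 5 (heads) and 0 to 1 (CNS). For the differences it gave 11 to 16 between the fru combinations, 0 to 2 between tra and dsxD, 2 to 4 between dsxD and the XX null, 3 to 6 between fru heads and CNS, and 0 between the strains and between the nulls. With the replicate block the paired differences gave 1 (tra and dsxD), 6 (dsxD and XX null) and 0 (the nulls), against 1, 4 and 0 without it, and no named call was lost.

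Probes without values, 3 or 4 arrays a genotype, and paralogs alike in sequence limit these results.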
